A study of Mus musculus with 10 samples.

Results

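NRF2 (gene Nfe2l2) and 8 genes that it is known to switch on were followed in primary mouse cortical neurons treated with lactacystin, an inhibitor of the proteasome. The 9 genes were taken as every probe set whose platform symbol was Nfe2l2, Nqo1, Srxn1, Hmox1, Ephx1, Ptgr1, Txnrd1, Gclm or Gclc, which gave 11 probe sets among 12422 of U74Av2, the larger of the 2 Affymetrix array designs used. They stood for 9 of the 8251 named genes of that design. For 8 of the probe sets (7 genes) there were values on both designs, while Hmox1, Gclm and a further Srxn1 probe set were measured on U74Av2 only. By 24 h of lactacystin all 9 genes but Gclc were called higher than controls. For Hmox1 and Gclm this was on U74Av2 arrays alone, and for Srxn1 by its brighter probe set alone. Gclc changed by 0.44 (log2) at 24 h and missed the threshold (adjusted p = 0.0948, limma). Nfe2l2, Ephx1, Ptgr1 and Nqo1 were still called higher than controls at 48 h, and so were Hmox1 and Gclm at a lower level than at 24 h. Srxn1 and Txnrd1 also fell between the lactacystin groups and were no longer called against controls at 48 h. Nqo1 was dim in controls and was tested only because its lactacystin arrays read higher.

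The cultures came from foetal Swiss albino mice of gestation day 15 to 16 and received 1 µM lactacystin on their day 5 in vitro, in serum-free NB medium. The 4 groups were untreated control at 24 h (2 arrays), control at 48 h (2 arrays), lactacystin at 24 h (3 arrays) and lactacystin at 48 h (3 arrays). All groups shared the strain, the culture day and the cell preparation. The lactacystin stock was made in DMSO, and the labels do not state whether controls received that solvent. Nor do they say that replicates were independent cultures, so the p-values here reflect the variation among these arrays alone, and some or all of it may be technical.

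NRF2 is a transcription factor of the basic leucine zipper family. In resting cells the adaptor KEAP1 hands it to a ubiquitin ligase and the proteasome degrades it, and electrophiles or oxidants that modify KEAP1 let it accumulate. It then pairs with a small MAF protein on antioxidant response elements and switches on genes of quinone and epoxide detoxification, haem breakdown, glutathione synthesis and thioredoxin reduction. In brain this programme is best known from astrocytes, and neurons are known for low NRF2 activity.

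The element is usually written with the core TGACNNNGC, where N is any base. Promoter windows of RefSeq (build GRCm38.p6), each from 250 bases before to 50 bases after a transcription start, were on hand for 7 of the 9 genes, and for Txnrd1 there were 3, giving 9 windows. Both strands were searched, and the core was found in 4 of the 9 windows, against 12.4% of all 32851 promoter windows of the same length. The related letters TGAGNNNGC were found in the Srxn1 window alone among the 9, against 17.6% of all windows, and either was found in 27.8%. On 1 strand the 2 letterings cannot match at the same start. The stretches upstream of the start that hold a match are printed 5′ to 3′ on the gene's strand. They show where the core, or for Srxn1 the related letters, lies before the start site. Whether a match went with a response to lactacystin was not tested. Capitals mark the match, and where the match lies on the other strand the capitals read as its reverse complement.
Nfe2l2, chr2:75704664-75704913, minus strand: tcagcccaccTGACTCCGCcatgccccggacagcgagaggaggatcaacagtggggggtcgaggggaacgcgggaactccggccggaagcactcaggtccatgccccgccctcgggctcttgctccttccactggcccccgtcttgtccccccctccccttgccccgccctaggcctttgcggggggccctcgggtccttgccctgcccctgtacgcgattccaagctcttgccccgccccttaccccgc
Srxn1, chr2:152105274-152105523, plus strand: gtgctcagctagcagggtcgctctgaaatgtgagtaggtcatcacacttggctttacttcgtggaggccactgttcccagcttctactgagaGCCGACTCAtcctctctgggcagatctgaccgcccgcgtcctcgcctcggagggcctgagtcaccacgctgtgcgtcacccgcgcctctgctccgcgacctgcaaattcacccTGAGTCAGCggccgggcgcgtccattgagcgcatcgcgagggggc
Gclm, chr3:122245403-122245451, plus strand: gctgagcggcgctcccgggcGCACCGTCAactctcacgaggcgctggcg
Txnrd1, chr10:82859094-82859142, plus strand: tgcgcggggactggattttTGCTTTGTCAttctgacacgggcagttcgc

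In the Nfe2l2 window the core lay 240 to 232 bases before the start. In the Srxn1 window TGAGTCAGC lay 45 to 37 bases before the start and TGAGTCGGC 158 to 150 bases before it on the opposite strand, and a further core, TGACCTAGC, lay 29 to 37 bases after the start on the opposite strand. The core of Gclm, TGACGGTGC, lay 134 to 126 bases before the start on the opposite strand. In 1 of the 3 Txnrd1 windows the core TGACAAAGC lay 92 to 84 bases before the start on the opposite strand, and it was followed by A, a longer form found in 3.04% of all windows. These letters were not in the windows of Ephx1, Nqo1 and Ptgr1 or in the other 2 windows of Txnrd1. The windows reach only 250 bases upstream, so a core further away would not be seen. A match is a run of letters and not a measured binding site, and binding was not measured here.

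Each group had 1 array on U74A: in every group but lactacystin at 48 h it was replicate 1, and there it was replicate 3. The other 6 arrays were U74Av2, 1 in each control group and 2 in each lactacystin group. Signals are given here after scaling each array to the same trimmed mean, and changes are differences of log2(signal + 32), a scale that understates the change of dim probe sets. With array design as a term, each change is built from differences within 1 deposited table, and levels are not adjusted between the tables. The median signal of an array ran from 140.6 to 234.1. Precision is limited by how few arrays there are. The ratio of the 3′ to the 5′ control probe set of Gapdh is a measure of RNA or labelling quality. It ran from 0.723 to 0.790 on U74A and from 1.55 to 3.48 on U74Av2. On U74Av2 at 24 h it was 1.62 in the control and 2.66 and 2.38 with lactacystin. At 48 h it was 2.48 in the control and 3.48 and 1.55 with lactacystin. The beta-actin ratio on U74Av2 was 1.155 in the control and 1.273 and 1.247 with lactacystin at 24 h. At 48 h it was 1.139 in the control and 1.457 and 1.237 with lactacystin. On U74A it ran from 1.103 to 1.18. The part of these ratios in the changes was not tested. Neuronal markers were present: all 8 that both designs share passed the low-signal filter, as did Tubb3 (neuronal tubulin) on U74Av2, where it read at least 10608 on every array.

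**Figure D1:**
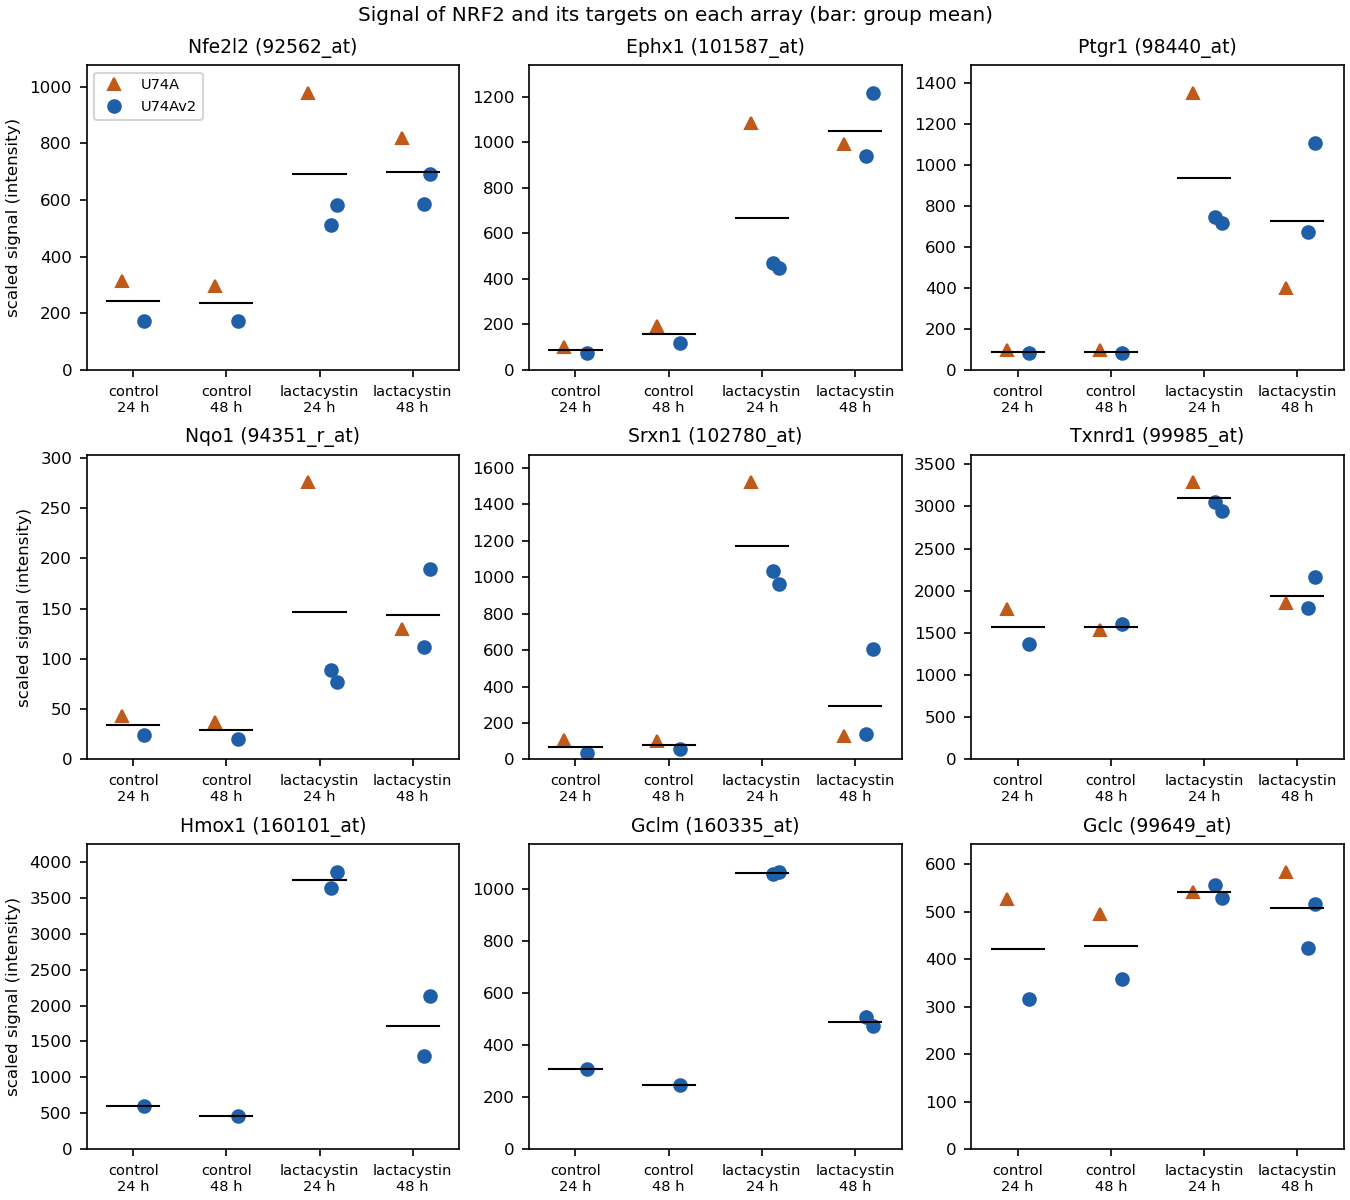
Scaled signal (linear intensity) of each of the 9 genes on every array, by group, with triangles for U74A and circles for U74Av2 and a bar at the group mean. Hmox1 and Gclm have U74Av2 arrays only. The group means of Nfe2l2 and Ephx1 are highest at 48 h of lactacystin, and those of the other genes at 24 h of lactacystin. For Nfe2l2 (691 and 699) and Nqo1 (147 and 144) the lactacystin means at 24 h and 48 h are close.

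The transcript of NRF2 itself rose and stayed up. In controls at 24 h the Nfe2l2 probe set (92562_at) read 313 and 174, and in controls at 48 h it read 297 and 174. On lactacystin arrays it read 979, 511 and 584 at 24 h and 585, 693 and 818 at 48 h. Every lactacystin array lay above every control array at both times, and in each control group the higher value was the U74A array. The change was 1.49 ± 0.15 (log2, SE, 2 control and 3 lactacystin arrays) at 24 h and 1.58 ± 0.15 at 48 h, with adjusted p of 9.78e-05 and 0.000171 (limma, Benjamini-Hochberg over 6984 probe sets). Without the array design term the changes were 1.38 and 1.48 and neither was called (adjusted p = 0.0527 and 0.0595). The effect at 48 h minus that at 24 h was 0.09 ± 0.21, with a 95% interval of -0.37 to 0.55 (adjusted p = 0.865). Between the lactacystin groups alone the difference was 0.06 ± 0.13. The order of the 4 levels was thus both controls, which did not differ beyond their spread, and then both lactacystin groups, which did not differ beyond theirs.

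Of the 7 genes on both designs, 6 were called higher at 24 h (adjusted p under 0.05) and none lower, where 8.15% of the 6984 probe sets tested were called higher and 6.63% lower. The median change of the 7 was 1.49 log2 units, against -0.03 over all probe sets tested. At 48 h 4 of the 7 were called higher and none lower, where 6.76% of probe sets were called higher and 3.57% lower. The median was 1.58 against 0.04. Nqo1 was counted at both times, though it passed the low-signal filter only through its lactacystin arrays. In the separate fit of the 6 U74Av2 arrays, which holds all 9 genes, 7 of 9 were called higher at 24 h (background 4.51%) and 6 of 9 at 48 h (background 3.14%). Every lactacystin array read above every control array at 24 h for each of the 7 genes, as it did for 17.2% of probe sets, and at 48 h for each of them except Gclc, as it did for 16.6%. In the U74Av2 arrays, with 1 control against 2, that held for 38% of probe sets at 24 h and 46.6% at 48 h and so says little there. None of the 7 genes was called between the controls of 24 h and 48 h, where 0% of all probe sets were called by limma and 390 passed an unadjusted p of 0.05. Ephx1 was the one whose control level moved most, by 0.65 ± 0.27 (adjusted p = 0.888).

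**Figure D2:**
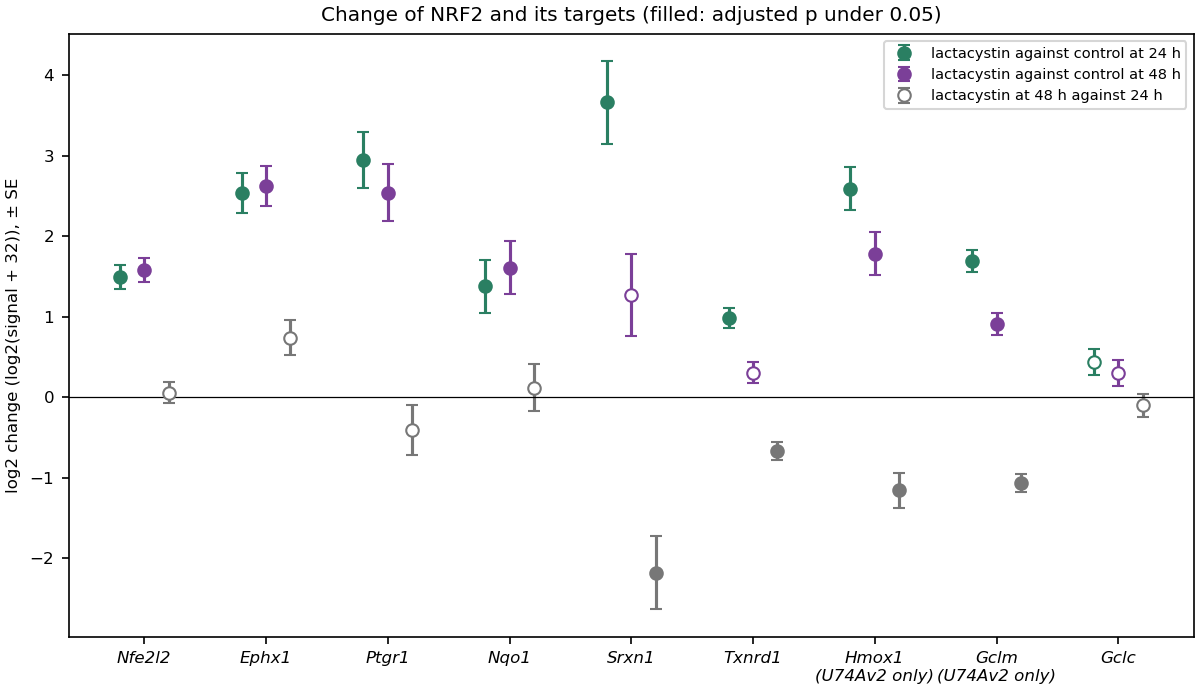
Change of each gene in log2(signal + 32) with its SE from the limma fit, for lactacystin against control at 24 h, the same at 48 h, and lactacystin at 48 h against 24 h; filled points have an adjusted p under 0.05. Nfe2l2 has changes of 1.49 and 1.58 at the 2 times, while Srxn1 goes from 3.66 to 1.27; Hmox1 and Gclm come from the fit of U74Av2 arrays alone.

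Ephx1, microsomal epoxide hydrolase, which opens reactive epoxides to diols, was called higher at both times with changes of like size. It read 99.1 and 73.6 in controls at 24 h and 194 and 118 in controls at 48 h. With lactacystin it read 1085, 468 and 446 at 24 h, and 939, 1217 and 992 at 48 h. No lactacystin array came near a control, and at 24 h the U74A array stood at more than the 2 U74Av2 arrays together. The change was 2.54 ± 0.25 at 24 h (adjusted p = 8.76e-05) and 2.63 ± 0.25 at 48 h (adjusted p = 0.000171), and their difference was 0.09 ± 0.35 (interval -0.67 to 0.86). Between the lactacystin groups Ephx1 was 0.74 ± 0.22 higher at 48 h, which just missed the threshold (adjusted p = 0.0522). Without replicate 1 of lactacystin at 24 h that difference was 1.06 (adjusted p = 0.00552), without replicate 3 of lactacystin at 48 h it was 1.02 (0.0138), and in the U74Av2 fit it was 1.17 (adjusted p = 0.0108). Within U74A the drug effect went from 3.09 to 2.18 and within U74Av2 from 2.21 to 2.87, so its direction over time differed between the designs.

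Ptgr1, prostaglandin reductase 1, reduces reactive alkenals and lipid mediators and was called higher at both times. It read 99.2 and 80.8 in controls at 24 h and 98.4 and 81.5 in controls at 48 h. With lactacystin it read 1354, 748 and 719 at 24 h and 673, 1107 and 402 at 48 h. All lactacystin arrays were above all controls, but at 48 h they ran over a wide range. The change was 2.94 ± 0.35 at 24 h (adjusted p = 0.000302) and 2.54 ± 0.35 at 48 h (adjusted p = 0.00135). The difference between the times was -0.41 ± 0.50, with an interval of -1.49 to 0.68. Within U74A the effect went from 3.40 to 1.74 and within U74Av2 from 2.76 to 2.98.

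Nqo1, the quinone reductase that is a standard readout of NRF2, had control signals near the 32 that was added before taking logs. All control arrays of the probe set that represents it (94351_r_at) read under the filter's 51.4. It was thus tested only because its lactacystin arrays read higher. Its calls and its place in the counts of genes are to be read with that limit. It read 43.3 and 24.8 in controls at 24 h and 37.4 and 20.4 in controls at 48 h. With lactacystin it read 276, 88.7 and 77.0 at 24 h and 112, 189 and 129 at 48 h. The groups did not overlap at either time, and the U74A array was far above the other 2 at 24 h. The change was 1.37 ± 0.33 at 24 h (adjusted p = 0.0168) and 1.61 ± 0.33 at 48 h (adjusted p = 0.0108), with a difference of 0.23 ± 0.46. The 24 h call was lost without either 24 h control array (adjusted p = 0.107 without replicate 1 and 0.126 without replicate 2), without replicate 1 of lactacystin (change 0.90, adjusted p = 0.0739) and in the U74Av2 fit (1.01, adjusted p = 0.109). The 48 h call was lost without either 48 h control array (adjusted p = 0.0930 and 0.0901).

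The other Nqo1 probe set (94350_f_at) comes from the same source sequence in the platform annotation, and its suffix marks probes shared with similar sequences. It read 54.0 and 15.0 in controls at 24 h, 38.1 and 15.3 in controls at 48 h, 148, 55.5 and 41.0 with lactacystin at 24 h, and 53.8, 77.6 and 84.7 with lactacystin at 48 h. At 24 h the groups overlapped, since 1 lactacystin array lay below the U74A control. Control means were 34.5 at 24 h and 26.7 at 48 h, so this probe set too passed the filter only through its lactacystin arrays. Its change at 24 h was 0.84 ± 0.26, which fell just short of the threshold of 0.05 on the adjusted p, and at 48 h it was 0.96 ± 0.26 (adjusted p = 0.0372). The 48 h call was lost with no filter (adjusted p = 0.0533), quantile normalization (0.0748), 48 h arrays alone (0.0787), U74Av2 arrays alone (0.106) and no design term (0.454). It was also lost without either control at either time, without replicate 2 of lactacystin at 24 h and without replicate 1 or 2 of lactacystin at 48 h, with adjusted p from 0.0536 to 0.183. Both probe sets gave changes above 0 at both times, the smaller ones in this set.

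Hmox1 encodes haem oxygenase 1, which splits haem into biliverdin, iron and carbon monoxide. It was called higher at both times and fell between them. The U74Av2 control of 24 h read 598 and that of 48 h read 461. With lactacystin it read 3638 and 3862 at 24 h and 1293 and 2131 at 48 h. All 4 lactacystin arrays were above both controls, and both at 48 h were below both at 24 h. The change was 2.59 ± 0.27 at 24 h (adjusted p = 0.00544, limma over 8695 probe sets, 2 residual degrees of freedom) and 1.78 ± 0.27 at 48 h (adjusted p = 0.0246). With 1 control array a time on U74Av2, the controls add nothing to the estimate of spread for Hmox1 and Gclm, which comes from the lactacystin pairs and from limma's pooling over probe sets. Between the lactacystin groups it fell by 1.16 ± 0.22 (adjusted p = 0.0284). The test of the drug effect itself between the times gave -0.81 ± 0.38 (adjusted p = 0.326). Without replicate 2 of lactacystin at 48 h, the higher of the pair, that difference was -1.16 and was called (adjusted p = 0.0246), and the fall between the lactacystin groups was not called without either 24 h array (adjusted p = 0.0544 and 0.0690).

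Srxn1 encodes sulfiredoxin, which repairs over-oxidised peroxiredoxins, and had the largest 24 h change of the 9 genes in both fits. The probe set that represents it (102780_at) read 105 and 34.7 in controls at 24 h and 103 and 58.7 in controls at 48 h. With lactacystin it read 1520.4, 1035 and 962 at 24 h but 142, 605 and 127 at 48 h. At 48 h replicate 2 stood far above the other 2 lactacystin arrays, which still lay above both controls. The change was 3.66 ± 0.51 at 24 h (adjusted p = 0.000859) and 1.27 ± 0.51 at 48 h, which was not called (adjusted p = 0.148).

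Between the lactacystin groups Srxn1 fell by 2.18 ± 0.45 (adjusted p = 0.0107), and the drug effect was -2.39 ± 0.72 between the times (interval -3.96 to -0.82), with an unadjusted p of 0.00631 and an adjusted p of 0.134. The test turned on replicate 2 of lactacystin at 48 h: without it the difference was -3.12 and was called (adjusted p = 0.00160). Leaving out replicate 3, the U74A array, instead gave a 48 h change of 1.95 that was called (adjusted p = 0.0264). The Gapdh 3′ to 5′ ratio was 1.55 on replicate 2, 3.48 on replicate 1 and 0.776 on replicate 3 of that group, and its part in the result was not tested. Within U74A the effect went from 3.50 to 0.24 and within U74Av2 from 3.95 to 1.88, a decline in both designs.

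The second Srxn1 probe set (161090_i_at), whose suffix marks a set with fewer probes than usual, was measured on U74Av2 only and went against the first. It read 178 in the 24 h control and 111 and 138 with lactacystin at 24 h, and 142 in the 48 h control and 164 and 151 with lactacystin at 48 h. Its changes were -0.42 ± 0.21 at 24 h (adjusted p = 0.267) and 0.12 ± 0.21 at 48 h (adjusted p = 0.775), neither of them called. The large early rise of Srxn1 therefore rests on 1 of its 2 probe sets.

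Txnrd1, thioredoxin reductase 1, which recharges thioredoxin with electrons from NADPH, rose at 24 h and was back near its controls at 48 h. It read 1786 and 1366 in controls at 24 h and 1537 and 1611 in controls at 48 h. Lactacystin arrays read 3284, 3054 and 2948 at 24 h and 1801, 2166 and 1854 at 48 h. The 24 h lactacystin arrays lay far above the controls, and at 48 h all 3 were still above both controls but by little. The change was 0.98 ± 0.13 at 24 h (adjusted p = 0.000600) and 0.30 ± 0.13 at 48 h (adjusted p = 0.167). Between the lactacystin groups it fell by 0.67 ± 0.11 (adjusted p = 0.00353). The drug effect was -0.68 ± 0.18 between the times (interval -1.08 to -0.28), with an unadjusted p of 0.00297 that did not pass adjustment (adjusted p = 0.101). It was close to the same in both designs, from 0.87 to 0.27 within U74A and from 1.12 to 0.29 within U74Av2.

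The subunits of glutamate-cysteine ligase, the first and limiting enzyme of glutathione synthesis, differed in their calls. Gclm, the modifier subunit, read 307 in the 24 h control and 1059 and 1067 with lactacystin, and 246 in the 48 h control and 508 and 472 with lactacystin, all on U74Av2. The 48 h pair lay between the controls and the 24 h pair. Its change was 1.69 ± 0.14 at 24 h (adjusted p = 0.00310) and 0.91 ± 0.14 at 48 h (adjusted p = 0.0241), and between the lactacystin groups it fell by 1.07 ± 0.11 (adjusted p = 0.00538). The drug effect was -0.79 ± 0.19 between the times (adjusted p = 0.151), and -0.83 and called without replicate 1 of lactacystin at 48 h (adjusted p = 0.0449). With no filter on dim probe sets the 48 h changes of Gclm and Hmox1 kept their size but were not called (adjusted p = 0.0515 and 0.0638).

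Gclc, the catalytic subunit, was the one gene of the 9 that was called at neither time in either fit. It read 526 and 315 in controls at 24 h, 495 and 358 in controls at 48 h, 542, 557 and 529 with lactacystin at 24 h, and 425, 515 and 584 with lactacystin at 48 h. The U74A control of 24 h, at 526, lay just under the lowest lactacystin array, at 529, and at 48 h the groups overlapped. The change was 0.44 ± 0.16 at 24 h (adjusted p = 0.0948, interval 0.08 to 0.79) and 0.29 ± 0.16 at 48 h (adjusted p = 0.295, interval -0.06 to 0.65). Within U74A the 24 h change was 0.04 and within U74Av2 it was 0.73, and without the U74A lactacystin array, replicate 1, it was 0.61 and called (adjusted p = 0.0369).

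Lasting and passing rises were set apart by calls: lasting meant called higher at both times, and passing meant called higher at 24 h but not at 48 h, with the drug effect called lower at 48 h than at 24 h. By that measure Nfe2l2, Ephx1, Ptgr1 and Nqo1 were lasting (4 of 7 genes), none was passing, and Srxn1, Txnrd1 and Gclc fell in neither class. The place of Nqo1 has the limit that it passed the filter only through its lactacystin arrays. No gene of the 7 was called for the drug effect at 48 h minus 24 h, where 0.845% of probe sets were called lower and 0.444% higher, although Srxn1 and Txnrd1 passed an unadjusted p of 0.05. Within the lactacystin groups 2 of the 7, Srxn1 and Txnrd1, were called lower at 48 h than at 24 h (background 5.31%) and none higher (6.19%). On U74Av2 arrays Hmox1, Gclm and Txnrd1 were called lower (background 4.34%) and Ephx1 higher (4.24%), and for Srxn1 the fall of 1.63 was not called there (adjusted p = 0.123). In that fit 5 of 9 genes were lasting, with Hmox1 and Gclm added and Nqo1 lost, and none of the 9 was called for the drug effect between the times (background 0.138% in either direction). Hmox1 and Gclm were therefore still raised at 48 h while also lower than at 24 h. Over both times together 6 of 7 genes were called higher (background 9.48%), all but Gclc.

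**Figure D3:**
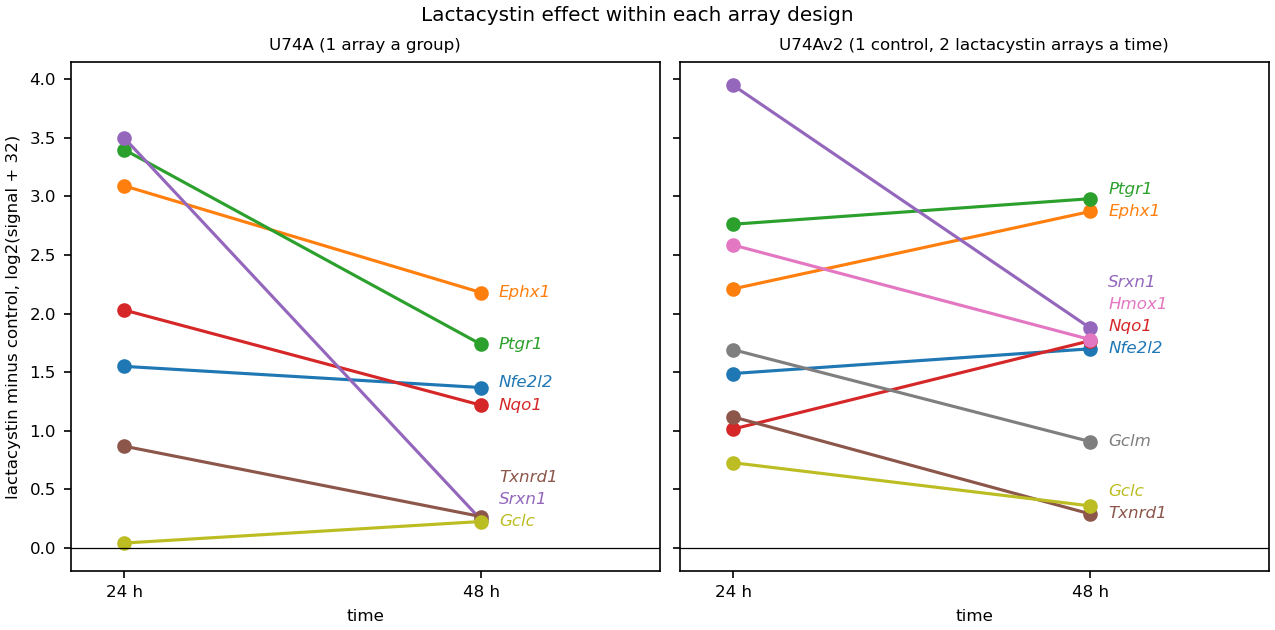
Drug effect, lactacystin minus control in log2(signal + 32), at 24 h and 48 h within U74A (left, 1 array a group) and within U74Av2 (right, 1 control and 2 lactacystin arrays a time). Srxn1 and Txnrd1 decline in both panels, while Ephx1, Ptgr1, Nqo1 and Nfe2l2 decline on U74A and rise on U74Av2, by 0.66, 0.22, 0.75 and 0.21.

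The 2 array designs, which are separate deposited tables each holding every group, both gave the 24 h rises but differed in the course over time. At 24 h the effect within U74A was larger than within U74Av2 for Nfe2l2, Ephx1, Ptgr1 and Nqo1, and smaller for Srxn1, Txnrd1 and Gclc. The effect at 48 h minus that at 24 h was -0.91 within U74A and 0.66 within U74Av2 for Ephx1, -1.66 and 0.22 for Ptgr1, -0.81 and 0.75 for Nqo1, and -0.18 and 0.21 for Nfe2l2. Only for Srxn1 (-3.26 and -2.07) and Txnrd1 (-0.60 and -0.83) among the 7 genes did both designs give the same sign. With 1 U74A array a group, a difference between designs cannot be told apart from a difference between single samples.

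Across the 10 arrays, after removing each probe set's mean within each design, the genes were correlated with each other, given here as a description because the arrays share the drug, the times and the tables. Srxn1 and Txnrd1 had r = 0.973 with each other, and Nfe2l2 had r = 0.977 with Ptgr1, 0.960 with Ephx1 and 0.948 with Nqo1. The lowest value was 0.589, between Ephx1 and Txnrd1. Among 5535 other named genes the 4 most like Nfe2l2 were Pqlc3 (0.995), Eci2 (0.981), Acadl (0.980) and Tnfrsf1a (0.980). Eci2 and Acadl are enzymes of fatty acid oxidation and Tnfrsf1a is a receptor of tumour necrosis factor. Those most like Srxn1 were Ran (0.984), Hgsnat (0.978), Sqstm1 (0.978) and Sat1 (0.970), and those most like Ephx1 were Asah1 (0.986), Lgals1 (0.983), Mt1 (0.983) and Cpt1a (0.982). The changes of Pqlc3 were 1.56 at 24 h and 1.63 at 48 h, close to those of Nfe2l2, while Lgals1, a galectin, went from 1.87 to 2.63 and Mt1, a metallothionein, from 1.45 to 2.13.

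Other genes of the pathway were taken from a list of 51 in 7 roles, of which 40 were on the arrays and 27 tested on both designs. At 24 h 13 of the 27 were called higher and none lower, with a median change of 0.42, against 8.15% of probe sets called higher and a median of -0.03 over all. At 48 h 4 of the 27 were called higher and none lower (median 0.14), against 6.76% of probe sets called higher and 3.57% lower, and with arrays scaled to the median 2 were called higher and 1 lower. For the drug effect between the times 1 of the 27 was called, Sqstm1, which was lower at 48 h. The count at 24 h was 6 and 5 without replicate 1 or 2 of the 24 h controls. At 48 h it was 2 without either 48 h control and 7 without replicate 3 of lactacystin at 48 h.

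**Figure D4:**
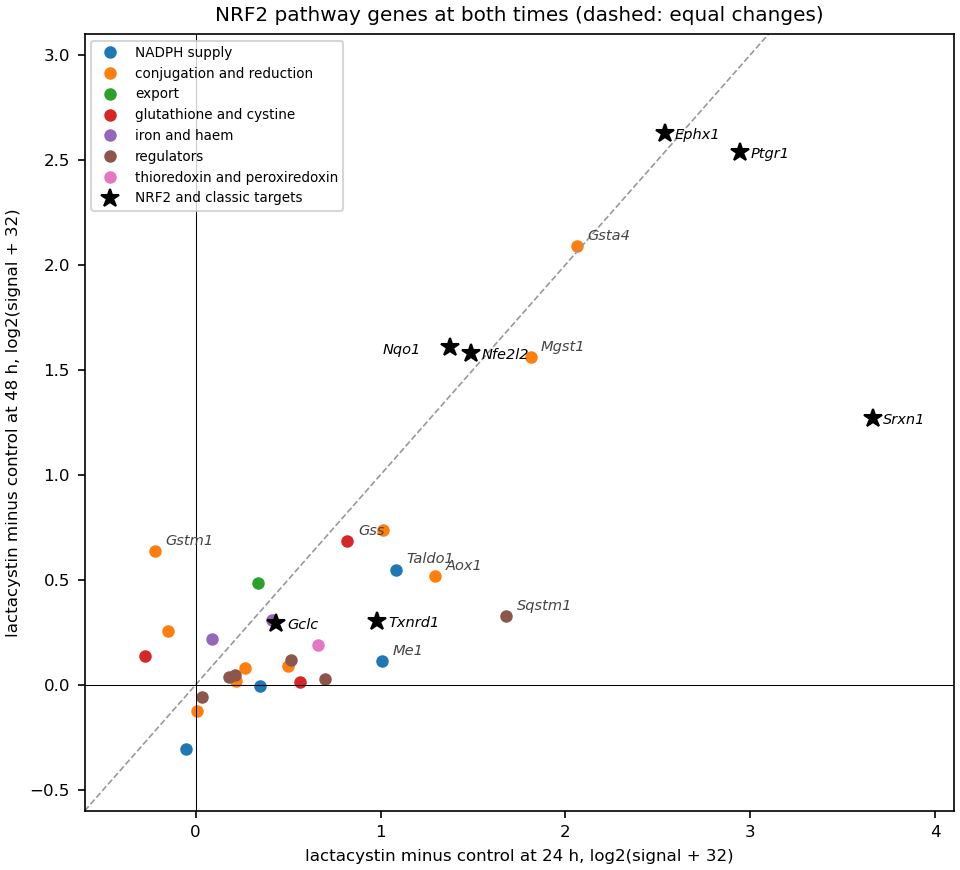
Change at 24 h (horizontal) against change at 48 h (vertical), both in log2(signal + 32), for the pathway genes tested on both designs (circles, coloured by role) and the 7 genes of the NRF2 group on both designs (stars). The dashed line marks equal changes; Ephx1, Nfe2l2, Nqo1 and Gsta4 lie near it, and Srxn1, Txnrd1, Sqstm1 and Me1 lie below it.

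Among conjugating and reducing enzymes 5 of 10 were called higher at 24 h and 3 of 10 at 48 h, where 8.15% and 6.76% of all probe sets were. The glutathione transferase Gsta4 ranged from 174 to 201 in 24 h controls and from 806 to 1063 with lactacystin, and from 142 to 205 in 48 h controls and from 499 to 1224 with lactacystin. Its change was 2.06 ± 0.30 at 24 h (adjusted p = 0.00106) and 2.09 ± 0.30 at 48 h (adjusted p = 0.00150). The microsomal transferase Mgst1 changed by 1.81 ± 0.25 (adjusted p = 0.000831) and 1.56 ± 0.25 (adjusted p = 0.00306). Aldehyde oxidase Aox1, aldo-keto reductase Akr1b8 and Gstp1 were called at 24 h alone, with changes of 1.29, 1.01 and 0.50, and Gstm1 at 48 h alone, with 0.64. Aox1 ranged from 12.8 to 23.0 in 24 h controls, under the 32 added before taking logs, and from 68.4 to 110 with lactacystin. Its control means, 17.9 at 24 h and 44.9 at 48 h, were under the filter's 51.4. Aox1 was thus tested only because its lactacystin arrays read higher. Its call and its place in the counts of pathway genes are to be read with that limit.

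Among regulators 3 of 6 were called higher at 24 h and 0 of 6 at 48 h, against the same shares of 8.15% and 6.76%. Sqstm1 encodes p62, an autophagy receptor that binds KEAP1. It ranged from 1446 to 1726 in 24 h controls and from 4828 to 5827 with lactacystin, and at 48 h from 1522 to 2089 and from 1666 to 3406, where the groups overlapped. Its change was 1.68 ± 0.16 at 24 h (adjusted p = 8.69e-05) and 0.33 ± 0.16 at 48 h (adjusted p = 0.244), and their difference of -1.35 ± 0.23 was called (adjusted p = 0.0169). That call was lost without any 1 of the 4 control arrays, with adjusted p from 0.0576 to 0.133, and also without the variance trend (0.0591), on U74Av2 arrays alone (0.139) and without the design term (0.520). The small MAF gene Mafg changed by 0.70 and Bach1, which represses the same elements, by 0.52 at 24 h, while their 48 h values were 0.03 and 0.12. The ligase scaffold Cul3 changed by 0.18 and 0.04 and was called at neither time.

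Of the genes that supply NADPH 2 of 4 were called higher at 24 h (background 8.15%), Taldo1 (1.08) and Me1 (1.01), and 0 of 4 at 48 h (background 6.76%), where these 2 had 0.55 and 0.11. Glutathione synthetase (Gss) rose at both times, by 0.82 ± 0.16 at 24 h (adjusted p = 0.00597) and 0.68 ± 0.16 at 48 h (adjusted p = 0.0204), and the amino acid transporter chain Slc3a2 at 24 h alone (0.57, then 0.01). The 48 h call of Gss was lost without replicate 1 or 2 of the 48 h controls (adjusted p = 0.0588 and 0.241) and without replicate 2 of lactacystin at 48 h (0.0554), and its 24 h call without replicate 1 of the 24 h controls (0.0662). Thioredoxin Txn1 changed by 0.66 at 24 h (adjusted p = 0.0170) and by 0.19 at 48 h. None of the 2 iron and haem genes or the 1 exporter tested was called, ferritin heavy chain Fth1 coming closest with 0.42 at 24 h (adjusted p = 0.0517). Of 3 further genes on U74Av2 only, glutathione reductase Gsr rose by 1.46 ± 0.11 at 24 h (adjusted p = 0.00305) and changed by 0.48 at 48 h (adjusted p = 0.0685). Idh1, cytosolic isocitrate dehydrogenase, fell by 0.95 ± 0.12 at 24 h (adjusted p = 0.0110), the one called fall on the list, and changed by -0.55 at 48 h (adjusted p = 0.0608). The third, Cbr3, was called at neither time.

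Cell type markers moved with the same groups, and in bulk RNA fewer cells of a type and less RNA per cell cannot be told apart. The summed signal of the 8 neuronal markers on U74Av2 was 16520 and 20160 in the 2 controls, 11150 to 11300 with lactacystin at 24 h and 12530 to 12810 at 48 h. On U74A it went from 22810 to 15770 at 24 h and from 24610 to 21530 at 48 h. Stmn2, the brightest of the 8, weighed most in this linear sum, with a mean of 11429 in 24 h controls and 6658 with lactacystin. The median log2 change of the 8 was -0.28 at 24 h and -0.33 at 48 h. Of the 8 markers tested 2 were called lower at each time, Syt1 and Stmn2 at 24 h, and Snap25 and Stmn2 at 48 h, where 6.63% and 3.57% of all probe sets were called lower. For markers called higher in the lists that follow, the shares over all probe sets were 8.15% at 24 h and 6.76% at 48 h. The summed signal of 7 astrocyte and radial glia markers on U74Av2 was 11870 and 12160 in controls, 11360 to 11370 with lactacystin at 24 h and 15230 to 16650 at 48 h. On U74A it went from 17790 to 16110 at 24 h and from 18010 to 18510 at 48 h, so the higher sum at 48 h was mostly that of U74Av2. Fabp7, with means of 12490 and 12441 in 24 h and 48 h controls, weighed most in the astrocyte sums. Of 6 astrocyte markers tested 2 were called lower at 24 h (Gfap and Aqp4) and 1 higher (Gja1). At 48 h 3 were called higher (Gfap, Gja1 and Ntsr2). Aldoc, an astrocyte marker on U74Av2 only, read 2405 in the 24 h control and 627 to 784 with lactacystin, a change of -1.73. At 48 h it read 2441 in the control and 3344 to 3638 with lactacystin, a change of 0.51.

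Gfap, the intermediate filament of astrocytes, ranged from 291 to 320 in 24 h controls and from 162 to 208 with lactacystin, and at 48 h from 264 to 334 and from 795 to 864. Gja1, a connexin of astrocytes, went the other way from Gfap at 24 h, with a change of 1.04 ± 0.16 (adjusted p = 0.00137), and was also higher at 48 h (0.90). The summed signal of the 9 microglia and macrophage markers on U74A went from 878 in the control to 1407 with lactacystin at 24 h. At 48 h it went from 1057 to 1557 on U74A. On U74Av2 it was 594 in the 24 h control and 730 to 754 with lactacystin. At 48 h on U74Av2 it was 510 in the control and 986 to 1413 with lactacystin. Cd68, 1 of 6 tested, was called higher at 24 h, and Cd68, Tyrobp and Ctss, 3 of 6, at 48 h. Tyrobp had means of 48.8 in 24 h controls and 41.0 in 48 h controls, under the filter's 51.4. It too passed the filter only through its lactacystin arrays. The median change of the 6 was -0.04 at 24 h and 0.47 at 48 h. The sum of the 8 fibroblast, mural and meningeal markers differed between the designs at 24 h. On U74A it went from 1355 in the control to 2517 with lactacystin. On U74Av2 it was 1348 in the control and lower with lactacystin, at 1217 to 1307. At 48 h it went from 1262 to 3925 on U74A, and on U74Av2 from 1347 to between 2120 and 3813. Tagln, 1 of 7 tested, was called higher at 24 h, and Acta2 and Tagln, 2 of 7, at 48 h. The median change of the 7 was -0.38 at 24 h and 0.06 at 48 h, so the higher sums came from part of the list. Endothelial, oligodendrocyte and erythroid lists had 2, 2 and 1 markers tested and none called. The part of these shifts in the NRF2 group's changes was not tested.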

How the data were processed

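The 10 samples were hybridised to 10 arrays, and the deposited values are intensities, 1 linear signal per probe set, made by the authors with MAS5, as the submitters' processing notes name it; its version and settings are not given in the sources used here. They are held in 2 deposited tables, 1 per array design. Each array was scaled over the 9977 probe sets in both tables, without 66 control probe sets, to a trimmed mean of 500 (2% trimmed at each end). After adding 32 and taking log2, the lowest 30% by mean (2993, under a scaled signal of 51.4) were left out and 6984 tested in limma 3.58.1 (R 4.3.3; lmFit, eBayes with trend) on all 10 arrays, with group and array design as terms and 5 residual degrees of freedom. Probe sets of U74Av2 only were tested on its 6 arrays (8695 tested, 2 residual degrees of freedom). P-values are two-sided, and the threshold is a Benjamini-Hochberg adjusted p of 0.05. A gene was represented by its brightest probe set, named from the platform annotation: 8724 of the shared probe sets had 1 symbol, 346 several and 907 none. Genes outside the NRF2 group were named by rule: from the pathway list the 3 largest called rises and the 2 largest called falls at each time, and the 4 genes most correlated with Nfe2l2, Srxn1 and Ephx1; others named were chosen after their values were seen. The fit was tested on simulated data. The genes, the pathway and marker lists and the tests were chosen with earlier results of these data known. Alternatives covered the pseudocount, scaling, filter, design term, replicate block, variance model and leaving out arrays.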

Additional observations from a re-analysis of the deposited data

Results flagged for a closer look

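Groups held 2 or 3 arrays, too few to test single arrays as outliers. None of the 9 genes had a drug effect that differed between 24 h and 48 h after adjustment. Of the pathway list, Sqstm1 did: its lactacystin effect at 48 h minus that at 24 h was -1.35 ± 0.23 (adjusted p = 0.0169, limma), with 4828 to 5827 on the lactacystin arrays at 24 h and 1666 to 3406 at 48 h. The call was lost without any 1 of the 4 control arrays (adjusted p from 0.0576 to 0.133), without the variance trend (0.0591), on U74Av2 arrays alone (0.139) and without the design term (0.520).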

How the results depend on the processing

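No named value changed sign together with its call under any alternative. Without the array design term, 2 of the 7 NRF2 genes on both designs were called at 48 h, 1 between the lactacystin groups, 2 were lasting, and 6 and 1 pathway genes were called at 24 h and 48 h; the calls of Nfe2l2 (adjusted p = 0.0527 and 0.0595) and Nqo1 (0.157 and 0.131) were lost at both times, and at 48 h those of Mgst1 (0.0746) and Gss (0.109). U74Av2 arrays alone gave 8 pathway genes at 24 h, and the arrays of 48 h alone 2 at 48 h. With no filter, 0 of the U74Av2-only probe sets were called at 48 h. Leaving out each array in turn gave 5 to 6 of those 7 genes at 24 h, 3 to 5 at 48 h, 2 to 3 between the lactacystin groups, 6 to 7 over both times, 0 to 1 for the drug effect between the times, 3 to 5 lasting and 0 to 1 passing, 5 to 14 and 2 to 7 pathway genes at 24 h and 48 h, and 2 U74Av2-only probe sets; where this left a group with 1 array, that array was assumed to vary like the other groups. It was added after seeing the data for U74Av2-only probe sets and named pathway genes. Whether replicate numbers paired the arrays could not be settled, since replicate 1 was the U74A array in every group but lactacystin at 48 h. Of 13 same-number pairs of deviations from the group means 9 had r over 0.1 (-0.621 to 0.670). Once the design means were also removed 2 did (-0.408 to 0.265). That removal leaves deviations that balance within each design, so same-design pairs tend to a negative r. With the replicate block 6 and 4 of the 7 genes were called at 24 h and 48 h, 12 and 5 pathway genes, and 3 of the 7 genes between the lactacystin groups, with Ephx1 added (adjusted p = 0.0329). Scaling to the median put the median of all probe sets at -0.11 at 48 h instead of 0.04 and gave 287 higher and 639 lower calls there instead of 472 and 249, and 19 and 135 instead of 31 and 59 for the drug effect between the times, 224 and 526 instead of 432 and 371 between the lactacystin groups, and 455 and 710 instead of 662 and 525 over both times; the counts of NRF2 genes stayed within 1.5 times. Calls over all probe sets at 24 h, 48 h and between the times were 1032, 721 and 90, against 250, 113 and 2 without the design term, 558, 385 and 12 on U74Av2 alone, 48 between the times with no filter and 37 without trend, 439 at 48 h on its own arrays, and 308 to 1100, 213 to 827 and 5 to 187 leaving out 1 array. The causes were not tested. For probe sets with control signals near the pseudocount, such as those of Nqo1, the size of the change is understated.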
